A study of Mus musculus with 32 samples.

Results

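Retinas of rd1 mice were compared with wild type (wt) retinas at postnatal day 4 (P4), using the 4 arrays titled rd1 and the 4 titled wt at that age, 8 of the 32 arrays of the series. Mice of the mutant group carried rd1 together with the linked light ear (le) mutation and are called rd1 here, and those of the control group carried neither. Each sample pooled 8 to 14 retinas, and no treatment was given to either group. RNA was hybridized to a mouse expression array on which a probe set, a group of short probes, reads 1 transcript or a few related ones. The comparison asks which transcripts already differ 4 days after birth, an age that precedes rod death. The variance came from the 24 arrays of P4, P6 and P8 together. Both mutations are carried from conception in every cell, so that effects of rd1, of le and of the chromosome segment that travels with them cannot be told apart here. The labels do not say whether the 4 pools of a group came from separate litters, so the p-values measure the spread between these samples. In pooled tissue, fewer cells of a type and less RNA per cell cannot be told apart.

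The rd1 mutation lies in Pde6b, which encodes a catalytic subunit of the cGMP phosphodiesterase of rods, the effector enzyme of the light response, which hydrolyses cGMP in the outer segment. In the mouse, rods are born around birth and in the first postnatal days, when dividing progenitors are still present, and outer segments form later. Rods lacking the enzyme accumulate cGMP and die in the weeks after birth, which makes the days before that death the time in which the earliest transcript differences can be sought. The le mutation lies in Hps4, a gene of lysosome-related organelle biogenesis.

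The upstream sequences of the 5 called genes for which a promoter entry was found are shown to place the rd1 gene beside the other genes whose level differed, since photoreceptor genes are commonly driven by the homeobox factor Crx and the leucine zipper factor Nrl. Each line gives the 250 bases before the transcript start, read in the direction of the gene, from RefSeq on build GRCm38.p6. Capitals mark TAATC, the core of the Crx site, and TGCTGA, a part of the Nrl site, both searched on both strands. The motifs do not overlap each other in these windows.
Pde6b, chr5:108388123-108388372, + strand: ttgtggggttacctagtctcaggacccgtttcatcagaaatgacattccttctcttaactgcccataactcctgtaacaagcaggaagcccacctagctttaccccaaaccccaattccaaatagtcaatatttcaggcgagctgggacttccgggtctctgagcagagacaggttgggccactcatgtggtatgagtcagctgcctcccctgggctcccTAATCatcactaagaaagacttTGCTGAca
Rabac1, chr7:24972729-24972978, - strand: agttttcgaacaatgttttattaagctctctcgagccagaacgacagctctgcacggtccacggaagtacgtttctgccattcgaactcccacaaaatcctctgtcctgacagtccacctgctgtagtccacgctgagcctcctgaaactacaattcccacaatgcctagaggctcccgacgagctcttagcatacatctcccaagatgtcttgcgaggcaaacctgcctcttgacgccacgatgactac
Ptpro, chr6:137252049-137252298, + strand: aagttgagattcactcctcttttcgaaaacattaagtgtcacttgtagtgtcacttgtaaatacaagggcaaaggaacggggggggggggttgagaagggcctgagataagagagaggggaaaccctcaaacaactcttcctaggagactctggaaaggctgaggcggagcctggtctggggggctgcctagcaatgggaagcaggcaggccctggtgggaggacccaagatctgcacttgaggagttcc
2610524H06Rik, chr5:114823469-114823718, - strand: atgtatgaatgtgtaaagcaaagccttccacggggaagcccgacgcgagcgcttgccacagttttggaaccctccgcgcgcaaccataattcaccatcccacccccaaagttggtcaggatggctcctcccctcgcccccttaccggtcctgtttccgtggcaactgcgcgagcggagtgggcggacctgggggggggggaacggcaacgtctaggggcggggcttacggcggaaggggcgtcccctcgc
Gabra2, chr5:71095850-71096099, - strand: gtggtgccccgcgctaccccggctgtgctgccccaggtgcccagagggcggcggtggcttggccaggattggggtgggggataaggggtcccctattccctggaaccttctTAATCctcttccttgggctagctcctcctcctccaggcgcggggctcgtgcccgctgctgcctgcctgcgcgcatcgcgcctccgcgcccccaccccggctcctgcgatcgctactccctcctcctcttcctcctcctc
The Pde6b window held TAATC 30 bases and TGCTGA 8 bases before the start. Gabra2 held TAATC 139 bases before the start, and the letters of neither motif occurred in the windows of Rabac1, Ptpro and 2610524H06Rik. TAATC occurred in 19.8% of 32851 mouse windows of this length, TGCTGA in 16.1% and both in 3.27%. A match describes the letters only.

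The arrays were alike in their overall values. The 8 array medians ran from 6.61 to 6.74 on the log2 scale, on which all levels are given, and the correlation of any rd1 with any wt array was 0.992 to 0.997, as high as that between arrays of 1 genotype (0.993 to 0.997). Bacterial control probe sets, which have no target in mouse RNA, read 1.75 to 4.62, and levels in that range are close to background. The gap between probe sets at opposite ends of the beta-actin transcript, a measure of RNA quality, was 1.19 to 1.32 in wt and 1.01 to 1.32 in rd1. Many retinal markers were high in both genotypes, though not all. High ones included Crx (12.58 in wt and 12.57 in rd1), Nrl (12.90 and 12.90), the cone opsin gene Opn1sw (11.13 and 11.11), the Mueller glia gene Glul (11.20 and 11.22) and the amacrine gene Gad1 (10.60 and 10.41). The Mueller glia gene Aqp4 (2.45 and 2.50) and the bipolar gene Vsx1 (3.04 and 2.80) were within the range of the bacterial controls. The cone gene Arr3 (5.79 and 5.98) and the progenitor gene Fgf15 (5.84 and 6.18) were dim. Other progenitor and bipolar markers read higher, namely Hes1 (8.04 and 8.21), Sfrp2 (6.99 and 6.78), Isl1 (9.13 and 8.97) and Prkca (6.72 and 6.37). In both genotypes, 0 of 25 listed progenitor genes and 6 of 21 bipolar genes were within the range of the bacterial controls. The rod transducin gene Gnat1 stood at 6.66 and 6.71. Of the genes listed for other tissues, 8 of 9 for red blood cells, 11 of 22 for vessels, 13 of 26 for mesenchyme, sclera and muscle, 9 of 20 for microglia and 5 of 14 for the pigment epithelium were within the range of the bacterial controls in both genotypes. Those above it included the endothelial gene Cldn5 (6.54 and 6.94), the muscle gene Myh3 (5.05 and 5.14) and the pigment cell gene Dct (7.53 and 7.61). Array rd1 replicate 1 differed from the other 7 in Xist, the RNA of the inactive X chromosome, which read 4.69 there and 11.23 to 12.42 elsewhere.

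Few transcripts differed at P4. Of 22626 probe sets, 9 were called by limma at an adjusted p under 0.05, which is 0.0398%. Of these 4 were higher (0.0177% of all) and 5 lower (0.0221%) in the mutant. In all, 854 (3.77%) had an unadjusted p under 0.05, 458 higher and 396 lower. Differences were above 0 for 62.5% of all probe sets (53.3% after a further quantile normalization). The groups did not overlap on 688 probe sets (3.04%). Were genotype without effect, no overlap of 4 against 4 arrays would have a probability of 0.0286, so it carries little weight alone. Group means differed by 1.5-fold or more on 109 probe sets (0.482%), of which 31 were higher and 78 lower in rd1, and all 9 called probe sets passed that fold. Later ages gave more calls, 26 (0.115%) at P6 and 35 (0.155%) at P8. The count moved with single arrays. Refits that left out 1 of the 8 arrays gave 5 to 9 calls, with 5 without rd1 replicate 3, 6 without rd1 replicate 1, the array with low Xist, and 6 also without wt replicate 1, 2 or 4. The probe sets of Pde6b, Rabac1, Ptpro and 2610524H06Rik and probe set 1420747_at, which has no gene symbol, were called in all 8 refits.

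**Figure D1:**
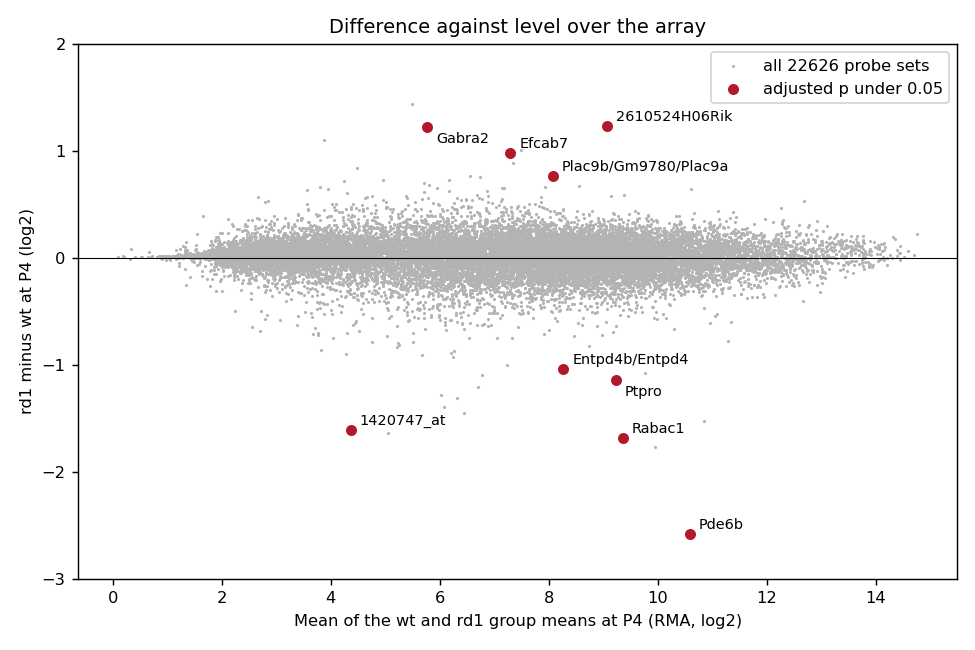
Difference of the group means at P4 (rd1 minus wt, log2, vertical axis) against the mean of the 2 group means (log2, horizontal axis) for all 22626 probe sets. Red points mark the 9 called probe sets, which lie between -2.58 (Pde6b) and 1.23 (2610524H06Rik and Gabra2).

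Pde6b had the largest difference of all probe sets. Its level on the wt arrays was, from lowest to highest, 11.65, 11.68, 11.82 and 12.38, and on the rd1 arrays 8.65, 9.19, 9.55 and 9.80. All rd1 arrays lay well below all wt arrays, and the transcript was still above the bacterial controls in rd1. The mean fell by 2.58 on the log2 scale (SE 0.21, 95% interval -3.03 to -2.14), a 5.99-fold lower level, with an adjusted p of 6.86e-07 by limma and a two-sided exact permutation p of 0.0286, the smallest that 70 assignments of 4 against 4 allow. Measured relative to Hprt, a housekeeping gene, the difference was -2.55. The labels of the 8 arrays thus matched the gene that carries the mutation.

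Rabac1 also fell. It encodes prenylated Rab acceptor 1, a membrane protein of the Golgi and secretory pathway that binds prenylated Rab GTPases. Levels were 9.92, 10.26, 10.26 and 10.38 in wt and 8.03, 8.40, 8.72 and 8.91 in rd1. The groups were separated by a full unit on the log2 scale. The difference was -1.69 (SE 0.17, interval -2.03 to -1.34), or 3.22-fold lower, with an adjusted p of 7.91e-06 and an exact permutation p of 0.0286, and relative to Hprt it was -1.65. In contrast to Pde6b, Rabac1 is on chromosome 7, away from the mutated locus.

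Ptpro encodes a receptor-type protein tyrosine phosphatase found on neurons and on kidney podocytes. Its brighter probe set read 9.60, 9.75, 9.82 and 10.01 in wt and 8.59, 8.63, 8.70 and 8.71 in rd1. The rd1 arrays were close together and lay below every wt array. The difference was -1.14 (SE 0.13, adjusted p = 9.82e-05), a 2.20-fold lower level. A dimmer Ptpro probe set gave -1.09 (SE 0.32, adjusted p = 0.905) without overlap of the groups. Ptpro is on chromosome 6.

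Of the other called falls, 1 was of a probe set assigned to both Entpd4 and Entpd4b, which encode nucleotide-hydrolysing enzymes of the Golgi and lysosome. It read 8.65, 8.74, 8.78 and 8.98 in wt and 7.37, 7.77, 7.86 and 8.00 in rd1, a difference of -1.04 (SE 0.18, adjusted p = 0.0233). These related genes cannot be told apart by the probe set. Probe set 1420747_at has no gene symbol in the annotation used. It read 4.83, 5.09, 5.17 and 5.60 in wt and 3.42, 3.53, 3.56 and 3.73 in rd1, a difference of -1.61 (SE 0.21, adjusted p = 5.18e-04). All rd1 levels of this probe set and none of the wt levels were within the range of the bacterial controls, so that the size of its fall is not settled.

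The largest called rise was that of 2610524H06Rik, a gene known by its clone name. Its levels were 8.36, 8.37, 8.37 and 8.69 in wt and 9.36, 9.69, 9.76 and 9.91 in rd1. The lowest rd1 array was above the highest wt array. The difference was 1.23 (SE 0.16, adjusted p = 4.88e-04), a 2.35-fold higher level. The gene is on chromosome 5, as is Pde6b, 6.43 Mb away on the RefSeq assembly.

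Gabra2, the alpha-2 subunit of the GABA-A receptor, the chloride channel of fast inhibition, read 4.94, 5.14, 5.23 and 5.31 in wt and 5.56, 6.32, 6.69 and 6.97 in rd1. The wt arrays were tight and close to background, and the rd1 arrays were spread above them. The difference was 1.23 (SE 0.22, adjusted p = 0.0307), and the call held in 1 of the 8 refits that left out an array. Gabra2 is also on chromosome 5, 37.4 Mb from Pde6b.

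Efcab7 encodes an EF-hand protein of the ciliary base that takes part in hedgehog signalling. It read 6.55, 6.80, 6.87 and 7.02 in wt and 7.24, 7.78, 7.96 and 8.16 in rd1, with the lowest rd1 array just above the highest wt array. The difference was 0.98 (SE 0.17, adjusted p = 0.0199), and 2 of 8 refits kept the call. A probe set assigned to Plac9a, Plac9b and Gm9780 read 7.42 to 7.88 in wt and 8.26 to 8.66 in rd1, a difference of 0.76 (SE 0.13, adjusted p = 0.0137), with the call kept in 4 of 8 refits. The Entpd4 probe set was called in 1 of 8.

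**Figure D2:**
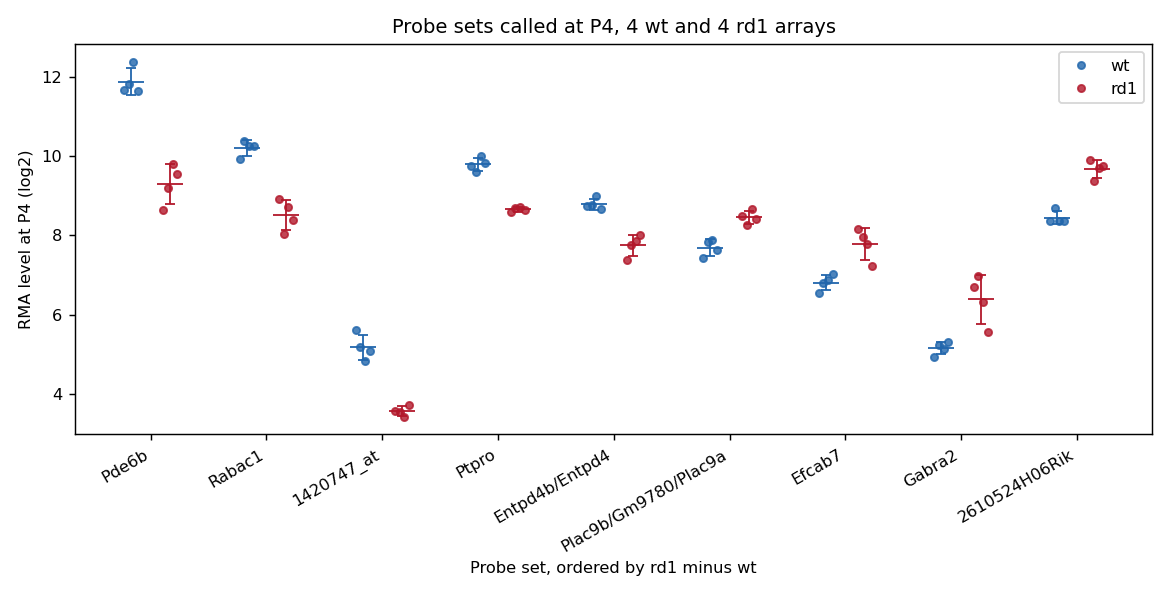
Level (log2, vertical axis) of the 9 called probe sets on the 4 wt (blue) and 4 rd1 (red) arrays of P4, ordered by the difference. Points are arrays, horizontal ticks are means and bars are SDs over 4 arrays. For each of the 9 the arrays of the 2 genotypes do not overlap, and the smallest gaps are those of Efcab7 and Gabra2.

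The arrays of P6 and P8 come from other samples and gave the same measure again. They also entered the variance behind the calls at P4, so they are not a fully independent repeat. Of the 9 probe sets, 5 were also called at P6 and 7 at P8, while 9 and 8 kept their sign. At both later ages 8 of the 9 kept their sign at an unadjusted p under 0.05 by limma. Of all probe sets, 8.91% had such a p, with either sign, at P6 and 19.5% at P8. Pde6b rose with age in both genotypes, from 11.88 ± 0.34 at P4 to 13.74 ± 0.15 at P8 in wt and from 9.30 ± 0.50 to 11.39 ± 0.48 in rd1 (SD, n = 4). The gap stayed similar, at -2.64 at P6 and -2.35 at P8. Rabac1 differed by -1.81 and -1.53 at these ages, 2610524H06Rik by 1.31 and 1.25, and the Entpd4 probe set by -1.10 and -0.98, and these calls held at each age. Ptpro was also called at both ages, with a difference of -1.51 at P8. Efcab7 differed by 0.78 (adjusted p = 0.062) at P6 and 1.13 (adjusted p = 0.00168) at P8. Gabra2 gave 0.47 and 0.75, neither called.

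The probe set that kept no such difference was 1420747_at. Its wt level went from 5.17 ± 0.32 at P4 to 4.24 ± 0.25 at P6 and 3.32 ± 0.13 at P8, while the rd1 level was 3.56 ± 0.12, 4.07 ± 0.57 and 3.39 ± 0.31. The differences at P6 and P8 were -0.17 and 0.07. The means of both genotypes were then within the range of the bacterial controls (up to 4.89 at P6 and 4.87 at P8), where a difference may be missed. The change of the difference between ages was not called (adjusted p = 0.0932 against P6 and 0.0675 against P8).

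**Figure D3:**
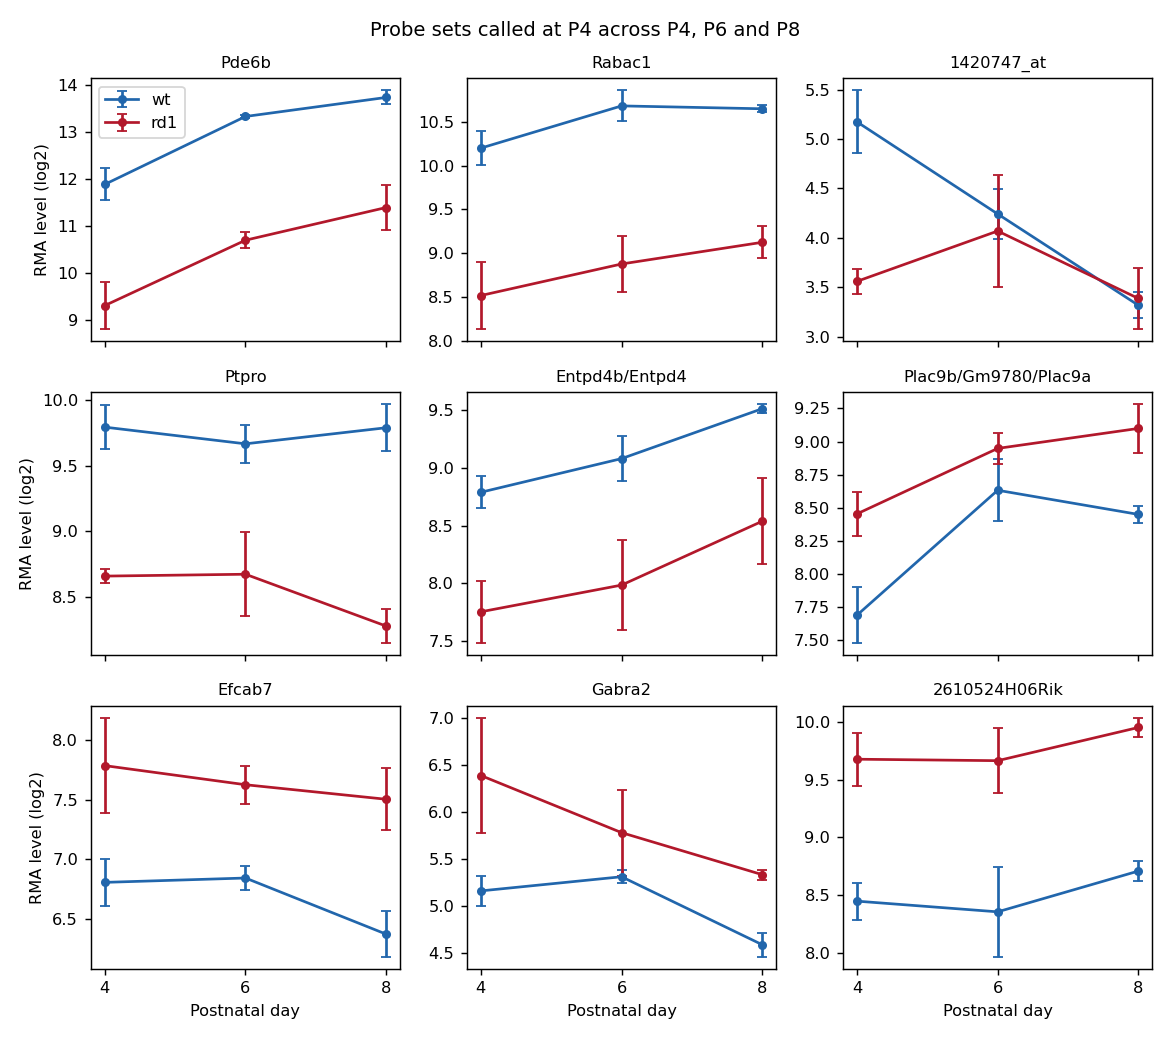
Mean level (log2, vertical axes, each with its own range) at P4, P6 and P8 (horizontal axis, postnatal day) of the 9 probe sets called at P4, in wt (blue) and rd1 (red). Bars are SDs over 4 arrays. Pde6b rises in parallel in both genotypes with a gap of 2.35 to 2.64, and the means of 1420747_at lie within the range of the bacterial controls in both genotypes at P6 and P8.

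Tested directly, the rd1 difference at P4 differed from that at P6 on 0 probe sets (0%) at an adjusted p under 0.05 by limma, with 1680 (7.43%) at an unadjusted p under 0.05. From that at P8 it differed on 2 (0.00884%), with 1073 (4.74%) at an unadjusted p under 0.05. Single arrays moved these counts: 5 without wt replicate 3 and 4 without rd1 replicate 1 against P6, and 4 without wt replicate 3 against P8, where leaving out any of 6 other arrays gave 0. The 2 called were Pecam1, a surface protein of endothelial cells, and Higd1b, which is expressed by pericytes. At P4 Pecam1 read 2.74 in wt and 2.75 in rd1, and at P8 4.02 in wt and 3.07 in rd1. Higd1b read 2.51 and 2.66 at P4, and 4.21 and 3.14 at P8. The adjusted p was 0.0363 for each. At P8 the arrays of the genotypes did not overlap for either gene. Pecam1 read 3.564 to 4.274 in wt and 2.899 to 3.262 in rd1, and Higd1b 4.127 to 4.335 and 2.811 to 3.344. All these means were within the range of the bacterial controls, which read up to 4.87 at P8. The sizes of these differences, and any order of the levels at P4, are therefore uncertain.

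Below the threshold, Sbno1, a gene of the strawberry notch family, came closest. It read 10.41, 10.56, 10.77 and 10.80 in wt and 9.61, 9.73, 10.20 and 10.34 in rd1, with no overlap. The difference was -0.67 (SE 0.13, adjusted p = 0.116), and it was -0.54 at P6 and -0.67 at P8. Another Sbno1 probe set gave -0.47. Without rd1 replicate 2 the adjusted p was 0.0138. Over all settings and the 75 single probe sets tried, an uncalled probe set became called in 3 outcomes, this one among them.

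Among the falls next in size without overlap of the groups, several genes had other probe sets that gave smaller differences. For Zfhx3, a homeobox and zinc finger transcription factor, 1 probe set gave -0.89 (adjusted p = 0.231), and the others gave 0.07 and -0.15. For Pabpc1, the cytoplasmic poly(A)-binding protein, a dim probe set gave -0.75 and the bright one 0.21. Brd8, a bromodomain subunit of a histone acetyltransferase complex, Ctr9, a subunit of the Paf1 elongation complex, Taok1, a stress kinase, and Pnn, a nuclear protein of splicing, had differences of -0.62, -0.60, -0.51 and -0.51. Their other probe sets gave -0.41 to -0.04 for Brd8, -0.09 to 0.05 for Ctr9, -0.16 to 0.30 for Taok1 and -0.12 to -0.09 for Pnn. Gdap10 gave -0.75. None of these was called (adjusted p of 0.231 or more).

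The rises next in size were smaller. Zfp593, a zinc finger protein, gave 0.72, C1qb, a chain of complement C1q made by microglia, 0.62, and Rita1, a tubulin-associated protein that binds the Notch effector RBPJ, 0.56. Grhpr, a glyoxylate reductase, gave 0.52, Zmat5, a zinc finger protein of the minor spliceosome, 0.48, and Hint3, a nucleotide hydrolase, 0.48. Gpx7, a peroxidase of the endoplasmic reticulum, gave 0.46, and Coq5, a methyltransferase of coenzyme Q synthesis, and Nubp1, an iron-sulfur cluster assembly factor, gave 0.45 each. None was called (adjusted p of 0.785 or more). A brighter C1qb probe set gave 0.21. At P6 and P8 the C1qb difference was -0.06 and 0.04. For Rita1 and Coq5, both on chromosome 5, it was -0.04 and 0.17 at P6 and 0.47 and 0.39 at P8 (adjusted p of 0.204 and 0.216 at P8).

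In some larger differences the rd1 arrays were spread widely. A dim probe set of Cdkn1b, the cyclin-dependent kinase inhibitor p27, read 4.49, 4.79, 4.86 and 4.96 in wt and 5.05, 5.54, 6.30 and 7.97 in rd1. The difference was 1.44 (SE 0.53, adjusted p = 0.999), the highest level being that of rd1 replicate 2. The brighter Cdkn1b probe set gave -0.25. For Ogt, the O-GlcNAc transferase, a probe set read 10.23 to 10.35 in wt and 8.40, 9.21, 9.57 and 9.71 in rd1, with the lowest level again on rd1 replicate 2. The difference was -1.08 (SE 0.43, adjusted p = 0.999), or -0.80 without that array, with no overlap of the groups. The brightest Ogt probe set gave -0.34. Erdr1 gave -0.77 (SE 0.20, adjusted p = 0.785) with overlap of the groups, but there the wider spread was in wt (SD 0.47, beside 0.33 in rd1). Array rd1 replicate 2 also had the lowest mean correlation with the other arrays of P4 (0.993).

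Genes near Pde6b on chromosome 5 differed more often than genes elsewhere. Within 20 Mb to each side, Pde6b left out, 13 of 450 probe sets had an unadjusted p under 0.01 (2.89%), beside 4 of 813 on the rest of that chromosome (0.492%) and 130 of 19087 on all others (0.681%), and 0.809% of all probe sets. The shares in the same order were 5.11%, 2.71% and 2.67% at P6, when 2.72% of all probe sets passed, and 8.44%, 5.78% and 4.18% at P8, when 4.45% passed. Neighbouring genes are not independent, and no test was made of these shares.

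The nearest genes with such a p differed in both directions. Cplx1, complexin 1, a regulator of synaptic vesicle fusion, was 0.13 Mb from Pde6b and gave 0.32 (9.06 to 9.20 in wt, 9.31 to 9.57 in rd1). Crlf2, a cytokine receptor chain, gave 0.40, the nucleolar protein gene Noc4l 0.34, and the zinc finger genes Zfp605 and Zfp932 0.70 and -0.34. Zfp605 read 5.12 to 5.71 in wt and 5.62, 5.68, 5.97 and 7.00 in rd1. Its groups thus overlapped, and the highest level was that of rd1 replicate 2. At P6 and P8 Zfp932 gave -0.38 and -0.59, Zfp605 0.50 and 0.84, and Cplx1 0.18 and 0.22. None of the 5 was called at P4 (adjusted p of 0.785 or more). Of the 13, 4 kept their sign at an unadjusted p under 0.05 at both later ages, namely 2610524H06Rik, Sbno1, Zfp932 and Zfp605, beside 2 of the 4 on the rest of the chromosome and 7 of the 130 on others. Hps4, the le gene, 3.95 Mb from Pde6b, read 8.57 in wt and 8.74 in rd1, a difference of 0.17 (SE 0.12, adjusted p = 0.999).

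**Figure D4:**
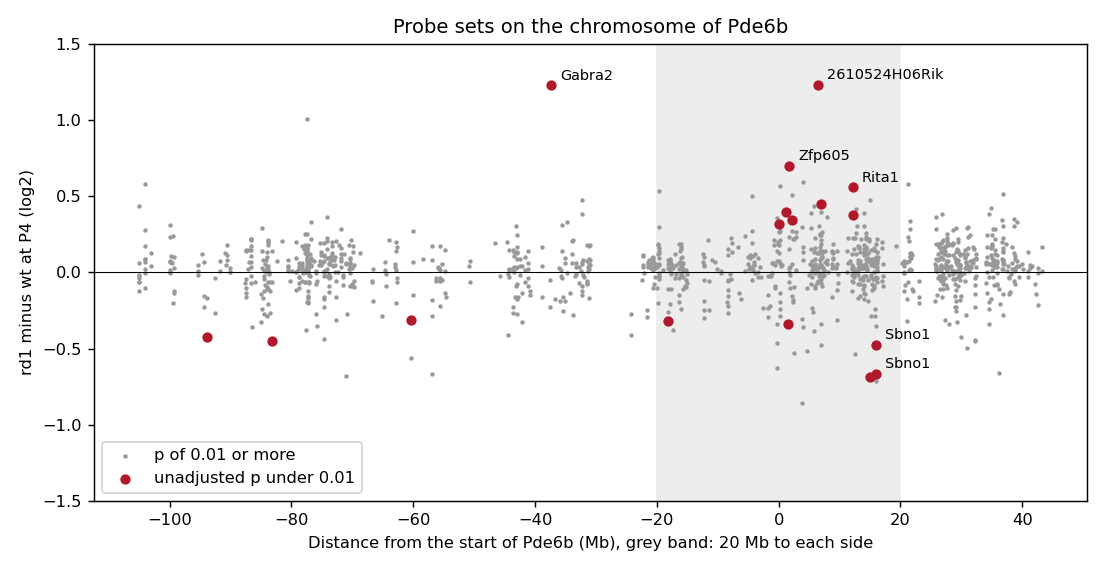
Difference at P4 (rd1 minus wt, log2, vertical axis) of probe sets on chromosome 5 against the distance of their gene from Pde6b in Mb (horizontal axis), Pde6b left out. Red points have an unadjusted p under 0.01. Inside the grey band of 20 Mb to each side 13 of 450 are red, and outside it 4 of 813.

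Rod genes as a group did not follow Pde6b. Of the 29 measured genes of rod phototransduction and the outer segment, a list without Pde6b itself, none was called at P4. In this list 14 were above 0 and 15 below. The median difference was -0.003, beside 0.031 over all 12393 genes, of which 62.8% were above 0. The partner subunits of the phosphodiesterase, Pde6a and Pde6g, read 5.50 and 11.39 in wt and 5.58 and 11.37 in rd1. The channel subunits opened by cGMP, Cnga1 and Cngb1, read 8.54 and 9.80 in wt and 8.51 and 9.81 in rd1. Sag, rod arrestin, had the smallest p of the group, at -0.23 (SE 0.12, adjusted p = 0.999). At P6 and P8 the median of the same genes was -0.33 and -0.22, with 1 gene called at P6 and 0 at P8. The differences at P4 ran from -0.23 to 0.27.

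Other lists near the pathway had medians close to that of all genes. The 12 photoreceptor transcription factors, among them Otx2 (13.51 in wt and 13.47 in rd1), Neurod1 (13.78 and 13.73) and Prdm1 (11.79 and 11.74), had a median of -0.02. The 8 cone genes had a median of 0.05 and the 30 other genes of cGMP and cAMP signalling 0.02. Pde6h, the inhibitory subunit of the cone phosphodiesterase, gave 0.26 (adjusted p = 0.999). Of 48 Rab GTPases and their regulators, a list without Rabac1 itself, 26 were above 0 and 22 below, with a median of 0.02. Rab4a, a GTPase of early endosomes, gave 0.36, and Rab11b, of recycling endosomes, -0.19, both with an adjusted p of 0.999. The 16 genes of melanosome and lysosome-related organelle biogenesis, the process that Hps4 serves, had a median of 0.02, and Lyst, a gene of lysosomal trafficking, gave -0.37 (adjusted p = 0.999).

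Of the 583 genes in the lists, that of ribosomal proteins left out, 0 were called at P4 by limma, beside 6 of all 12393 genes (0.0484%). Pde6b and Rabac1, both called, were in none of these lists, so the count of 0 does not cover them. At an unadjusted p under 0.05 there were 15 (2.57%), beside 471 of all genes (3.8%). Among the 15 were Pold2, a subunit of DNA polymerase delta, at 0.67 (SE 0.19, adjusted p = 0.942), Pclo, a scaffold of the presynaptic active zone, at -0.42, Slc17a6, the vesicular glutamate transporter of ganglion cells, at -0.40, and Six6, an eye field transcription factor, at 0.32, the latter 3 at an adjusted p of 0.999. Of 53 mitotic genes, 32 were above 0 and 21 below, with a median of 0.05, and at P6 the same genes had a median of 0.96. The 40 DNA replication genes had a median of 0.07 at P4, the 25 progenitor genes -0.02, the 21 bipolar genes -0.04, the 24 amacrine and horizontal genes -0.02, the 22 ganglion cell genes -0.06 and the 19 synaptic vesicle genes -0.09. For Mueller glia, with a median of 0.05, Apoe gave 0.25 (adjusted p = 0.999). The 30 apoptosis genes had a median of 0.03, with Capn2, a calpain, at 0.26, Bcl2l11, the gene of Bim, at -0.30 and Casp2 at -0.23.

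The arrays of 1 genotype differed more in rod and mitotic genes than the genotypes did. The mean level of the 29 rod genes was 8.69, 8.67, 9.25 and 8.74 on wt replicates 1 to 4 and 8.41, 8.78, 9.19 and 9.04 on rd1 replicates 1 to 4. Mitotic genes ran the other way, at 9.06, 9.02, 7.84 and 8.79 in wt and 9.28, 8.73, 8.31 and 8.52 in rd1. The genotypes overlapped in both measures. Replicate 3 had the highest rod and the lowest mitotic level in each genotype. Pde6b followed the rod genes within rd1, where it was lowest on replicate 1 and highest on replicate 3, and within wt it was highest on replicate 3, while the gap between genotypes exceeded this spread. The part of this spread in the number of calls was not tested.

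**Figure D5:**
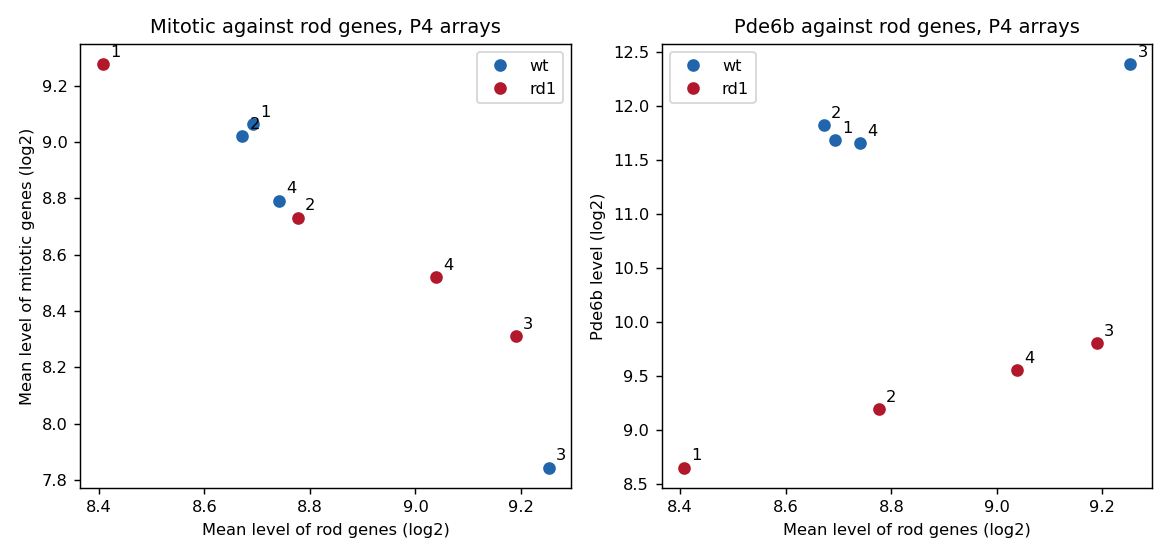
Left, mean level of 53 mitotic genes (log2, vertical axis) against that of 29 rod genes (log2, horizontal axis) on each P4 array, with replicate numbers beside the points. Right, level of Pde6b against the same rod mean. Wt (blue) and rd1 (red) arrays lie on a common falling line on the left, and on the right every rd1 array is below every wt array (highest rd1 9.80, lowest wt 11.65).

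Lens crystallins, structural proteins also made at low levels in retina, tended to read lower in rd1 without passing the test. Of 14 measured genes 13 were below 0, with a median of -0.78, and 0 were called (0 at an unadjusted p under 0.05). The list mean reached 4.31, 5.55, 5.92 and 6.09 on the wt arrays, against 4.22, 4.41, 4.89 and 5.23 on those of rd1. The groups overlapped through wt replicate 4, the array at 4.31. Crygb gave -1.64 (SE 0.95), Crygd -1.40 (SE 0.88), Cryga -1.31 (SE 0.83) and Cryba1 -1.21 (SE 1.00), each with an adjusted p of 0.999. The median of the list was -1.55 at P6 and 0.89 at P8, again with 0 genes called. Crystallins are the main proteins of the lens. The other lens fibre genes, 8 measured, had array means of 3.46 to 3.58 in wt and 3.50 to 3.62 in rd1. Of these, 6 were within the range of the bacterial controls, among them the lens channel gene Mip (2.87 and 2.85), and Bfsp1, a filament gene of the lens, read 5.45 and 5.49. The part of lens tissue in the crystallin values was not tested.

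Genes of the sex chromosomes varied between pools. Xist read 11.23, 11.33, 11.45 and 12.42 in wt and 4.69, 11.48, 12.07 and 12.10 in rd1, the low level being that of replicate 1. The Y-linked genes Eif2s3y, Uty and Kdm5d read 9.81, 7.48 and 7.12 on that array and 8.29 to 8.47, 5.97 to 6.24 and 5.18 to 6.14 on the other rd1 arrays. On the wt arrays Eif2s3y read 8.85 to 9.70, Uty 6.57 or more and Kdm5d 6.17 to 6.76. For these genes rd1 replicates 2, 3 and 4 thus lay below every wt array. The Eif2s3y difference of -0.60 (adjusted p = 0.999) was -0.95 without rd1 replicate 1. The Xist difference of -1.52 (SE 1.00, adjusted p = 0.999) turned to 0.27 without rd1 replicate 1. The X-linked genes Kdm5c and Ddx3x gave -0.49 and -0.25, and Eif2s3x, also X-linked, read 11.34 to 11.49 in wt and 11.35 to 11.52 in rd1. The sex of the pooled pups was not stated in the labels, and its part in other differences was not tested.

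Several lists of other tissues had small positive medians. Of 22 genes of endothelial cells and pericytes 20 were above 0 (median 0.07), of 26 mesenchymal, scleral and muscle genes 24 (0.07), of 20 microglia and macrophage genes 15 (0.08) and of 9 red blood cell genes 8 (0.02). After a further quantile normalization these counts were 14, 19, 14 and 3, and the red blood cell median turned to -0.01. Many of these genes were dim, and in the dimmest of 4 equal bins of all probe sets 80.2% were above 0, with a median of 0.04, beside 54.4% in the brightest bin. Cldn5, an endothelial tight junction gene, gave 0.39 (6.45 to 6.67 in wt and 6.80 to 7.06 in rd1, adjusted p = 0.999), and C1qa, a microglial gene, 0.25. Ttr, transthyretin, which the retinal pigment epithelium makes, read 10.95 to 11.22 in wt and 10.10 to 10.97 in rd1, a difference of -0.47 (adjusted p = 0.999). Of the 14 pigment epithelium genes 6 were above 0 and 8 below, with a median of -0.03. A list of 45 ribosomal protein genes, chosen after values were seen, had 39 above 0 and a median of 0.10, with Rpl6 at 0.31, highest on rd1 replicate 2 (13.21). This list had 33 above 0 and a median of 0.06 after the further quantile normalization.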

How the data were processed

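Pooled retinas of wt and rd1 mice were measured on Affymetrix MOE430A arrays, 8 groups of 4. The authors deposited log2 values made by Robust Multichip Average, with no software version stated, and all levels are on that scale. The fold changes and p-values of the authors' own FDR-CI procedure were not used, but the study's list for P4 served to choose some of the named genes. Values are relative to each array's overall distribution, so a shift common to all transcripts would not be seen, and the number of arrays limits the precision.

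After removal of 64 control probe sets, 22626 were tested with limma 3.58.1 in R 4.3.3, with 1 mean per group over the 24 arrays of P4, P6 and P8 (18 residual degrees of freedom), an intensity trend, two-sided tests and Benjamini-Hochberg adjustment over all probe sets. Calls are adjusted p-values under 0.05. The arrays of P2 were left out of the fit because Pde6b goes against several of their labels. Exact permutation tests over 70 assignments stand beside single genes. The fit was tested on simulated data with noise drawn independently for each probe set, so variation shared by many genes was not covered.

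Of the probe sets, 20380 have 1 gene symbol in the annotation used, 691 several and 1555 none, and in lists each gene was read by its brightest probe set. Promoter sequences, chromosomes and distances are from RefSeq on GRCm38.p6; the deposited values name no genome build. Promoter entries were found for 5 of the 6 called genes with a single symbol.

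Named genes are those called, the 12 largest rises and falls without overlap at an unadjusted p under 0.01 and a mean of 6 or more, all probe sets of Pde6b, Rabac1, Ptpro and Hps4, those the study lists for P4, members of gene lists with the smallest p, and genes within 5 Mb of Pde6b at that p. Others are marker genes, or were chosen after their values were seen: the members of the phosphodiesterase and channel, the Y-linked genes, Eif2s3x, Rpl6, Pecam1 and Higd1b. Comparisons, lists and rules were chosen with earlier results of these data known. Alternatives covered the arrays in the fit, moderation, weights, the replicate block, scaling, filtering, the threshold and each array in turn.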

Additional observations from a re-analysis of the deposited data

Results flagged for a closer look

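In a group of 4, an array was singled out when its gap to the nearest other array exceeded 0.829 of the group's range. This was checked in 158 groups, of which chance would single out about 1 in 20, and 16 were found.

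On rd1 replicate 1, Xist read 4.69 with the next array at 11.48, Eif2s3y 9.81, Smc2, a condensin subunit, 10.38, Pclo 8.44 and Pde6h 10.04. On rd1 replicate 2, Crlf2 read 7.85 and Nubp1 8.05, each above the other rd1 arrays. On rd1 replicate 4, Slc17a6 was low at 8.57. On wt replicate 3, Smc2 was low at 9.38, Rpl8, a ribosomal protein gene, was low at 12.28, and the mean of the rod genes was high at 9.25. On wt replicate 4, Cryga was low at 5.74, Grhpr at 6.99 and Rab4a at 8.81, and Kdm5c was high at 7.83. On wt replicate 2, 2610524H06Rik was high at 8.69, still below the rd1 arrays.

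The rd1 difference at P4 less that at P8 was 0.95 for Pecam1 and 1.22 for Higd1b (adjusted p = 0.0363 for each, limma). All group means of both genes at these ages were within the range of the bacterial controls, so the size of these changes is uncertain.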

How the results depend on the processing

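The count of 9 calls at P4 became 5 with the P4 arrays alone or those of P4 and P6, 15 with array quality weights, 2 when tested against a fold of 1.5, and 109 by that fold with no test. With all 32 arrays it was 1, the probe set 1420747_at, and the Pde6b difference of -2.58 then had an adjusted p of 0.101. Leaving out 1 array gave 5 to 9. With the replicate number as a block (replicate block) 5 were called. The deviations of same-numbered arrays correlated at 0.07, 0.01, 0.50 and -0.13, beside -0.395 to 0.460 for differently numbered arrays. Only replicate 3 lay above that range, so the numbers were not treated as pairs in the main fit. A factor shared by the arrays of replicate 3 was not tested.

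The change of the difference between ages gave 4 calls against P6 and 5 against P8 with all arrays, and 0 against P8 with no intensity trend. Leaving out 1 array gave 0 to 5 against P6 and 0 to 4 against P8. Of 75 single probe sets tried, the difference of Xist alone turned sign, to 0.27 without rd1 replicate 1, the lowest value without 1 array being -2.20. Among probe sets with an unadjusted p under 0.05, 53.6% were higher in rd1, 47.4% after median centring and 46.1% after a further quantile normalization. The cause of these changes was not tested. For probe sets at or under the bacterial controls, the order and size of differences are uncertain.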
